A study of Mus musculus with 12 samples.

Results

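Epidermal cells rest on a basement membrane, and 45 genes that build this sheet or anchor cells to it were followed across 5 fractions of epidermal cells sorted from mouse skin. The genes were chosen by symbol, as integrin alpha and beta subunits with a number in their name, laminin chains, the collagens IV, VII and XVII, nidogens, perlecan, the Fraser complex, and the hemidesmosome genes Dst, Plec and Cd151. Each gene was read from 1 probe set, the one of highest mean signal, and the 45 are part of 18193 genes measured on the Affymetrix arrays. Itga11, which also fits the symbols, is not analysed here. All mice carried the K5-tTA driver with its responder pTRE-H2B-GFP, and in addition the recombinase line K14-CreER with the Rosa-tdTomato reporter. The keratin 5 promoter drives the transactivator tTA, which keeps a green histone label switched on until doxycycline stops it, and each division then dilutes the label. Only cells with keratin 5 promoter activity can therefore ever carry the label. Every group received doxycycline at 1 g per kg of food for 2 weeks and tamoxifen once at 75 mg per kg, and was taken 1 week after the tamoxifen at second telogen, the second resting phase of the hair cycle. The fractions are 3 arrays of BL LRC, 3 of BL non-LRC, 2 of SL LRC, 2 of SL non-LRC and 2 of GL. From what is known of the study, BL, SL and GL are read as basal, spinous and granular layer, and LRC as label-retaining cells. LRC kept the green label through the chase, as cells that divide rarely do. Non-LRC may have diluted it by dividing more or may never have carried it, which these arrays cannot tell apart. The sources used here give neither the sorting gates nor the sex, age or number of mice behind a sample. Since no label states that each array had its own mouse, a p-value here reflects spread among these arrays, part of which may be technical.

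Keratinocytes of the basal layer hold on to the basement membrane in 2 main ways. In hemidesmosomes, integrin alpha 6 beta 4 and collagen XVII bind laminin 332 outside the cell, and plectin and the epithelial form of dystonin tie them to keratin filaments inside it. In focal contacts, integrins with the beta 1 chain, chiefly alpha 3 beta 1 and alpha 2 beta 1 in epidermis, bind laminin and collagen and couple to actin. The sheet itself is a network of laminins and collagen IV joined by nidogen and perlecan, with collagen VII fibrils and the Fraser complex holding it to the dermis. As keratinocytes leave the basal layer they lose contact with the sheet, and loss of integrin signal is a textbook feature of their differentiation. Laminins are trimers of 1 alpha, 1 beta and 1 gamma chain, and Lama3 and Lamb3 encode chains of laminin 332.

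The promoter windows of 5 collagen genes are shown because 4 of these genes fell both from BL to SL and from SL to GL, while Col4a5, the head-to-head neighbour of Col4a6, was not called. They were taken from RefSeq on assembly GRCm38.p6 and run from 250 bases before to 50 bases after the start, 5′ to 3′ on the gene's own strand. Of the 45 genes, 31 had a window in the RefSeq table, and because some genes have several starts these made 37 windows. Col4a1 (chr8:11312777-11313076, minus strand) and Col4a2 (chr8:11312555-11312854, plus strand) lie head to head with starts 21 bases apart, and the capitals mark the 78 bases that both windows share, read on opposite strands.
Col4a1: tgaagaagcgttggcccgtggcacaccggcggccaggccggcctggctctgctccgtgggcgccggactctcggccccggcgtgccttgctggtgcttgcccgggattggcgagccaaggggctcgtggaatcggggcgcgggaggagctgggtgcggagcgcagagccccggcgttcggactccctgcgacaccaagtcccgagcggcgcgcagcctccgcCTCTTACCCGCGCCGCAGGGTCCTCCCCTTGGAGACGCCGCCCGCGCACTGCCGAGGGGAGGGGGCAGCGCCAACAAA
Col4a2: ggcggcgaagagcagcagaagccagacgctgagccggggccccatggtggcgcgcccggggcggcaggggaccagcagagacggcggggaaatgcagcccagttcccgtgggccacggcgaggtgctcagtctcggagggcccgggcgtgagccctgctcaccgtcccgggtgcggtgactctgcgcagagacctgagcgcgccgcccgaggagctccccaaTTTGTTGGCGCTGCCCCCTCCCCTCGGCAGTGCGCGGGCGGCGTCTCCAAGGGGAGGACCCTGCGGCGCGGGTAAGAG
Col4a6 (chrX:141474027-141474326, minus strand) and Col4a5 (chrX:141475169-141475468, plus strand) are also head to head, with starts 1343 bases apart and 0 shared bases in these windows. Capitals mark the GC box letters GGGCGG or their complement on the other strand.
Col4a6: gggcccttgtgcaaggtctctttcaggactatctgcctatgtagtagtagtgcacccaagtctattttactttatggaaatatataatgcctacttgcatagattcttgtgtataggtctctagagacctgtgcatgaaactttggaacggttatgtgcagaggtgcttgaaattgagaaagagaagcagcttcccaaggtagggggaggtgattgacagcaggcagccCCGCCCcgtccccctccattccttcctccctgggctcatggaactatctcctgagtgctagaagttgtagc
Col4a5: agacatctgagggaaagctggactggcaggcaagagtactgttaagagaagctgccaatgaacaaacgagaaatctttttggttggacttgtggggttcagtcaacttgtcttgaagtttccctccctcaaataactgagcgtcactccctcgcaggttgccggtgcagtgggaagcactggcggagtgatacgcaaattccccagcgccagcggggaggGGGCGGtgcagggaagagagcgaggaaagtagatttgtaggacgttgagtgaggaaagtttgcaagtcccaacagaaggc
Col17a1 (chr19:47691993-47692292, minus strand) encodes the transmembrane collagen of the hemidesmosome, and capitals mark the letters TATAAA.
Col17a1: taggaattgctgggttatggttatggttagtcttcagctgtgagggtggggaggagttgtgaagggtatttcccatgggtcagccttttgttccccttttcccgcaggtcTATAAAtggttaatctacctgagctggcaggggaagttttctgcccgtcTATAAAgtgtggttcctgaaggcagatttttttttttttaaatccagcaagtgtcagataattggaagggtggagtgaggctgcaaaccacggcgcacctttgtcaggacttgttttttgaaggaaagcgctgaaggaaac

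Each window was searched on both strands for 4 letter strings, none of which contains another. The letters TATAAA stood in 1 of 37 windows, that of Col17a1, against 13.6% of all 32851 windows in the table. GGGCGG stood in 19 of 37 windows against 35.7% of all, CCAAT in 12 against 37.4%, and the AP-1 letters TGANTCA in 2, those of Itga3 and Itga9, against 7.81%. A match is a description of the letters only, and windows of 1 gene can overlap.

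Signal is given as intensity, which the authors had scaled to the same trimmed mean on every array, and background is the 95th percentile of 27 bacterial control probe sets, 22.4 to 42.6 units by array. Of the 45 genes, 27 were above background on all 12 arrays and each of the 45 on at least 1. The bacterial spike-in control BioB split the arrays into a low set of 467 to 524 units, with BL LRC 1, BL non-LRC 1 and both SL non-LRC arrays, and a high set of 2880 to 3930 units with the other 8. Both SL LRC arrays lie in the high set, so label and array set cannot be told apart in SL. Y-linked genes were at background on BL LRC 1 and BL non-LRC 1 and above it on the other 10 arrays. The basal keratins Krt5 and Krt14 and the suprabasal keratins Krt1 and Krt10 were above background in all 5 groups, and no comparison between layers called them (limma adjusted p from 0.0871 for Krt14 in GL vs SL to 0.824 for Krt5 in GL vs SL). Other genes of the keratinocyte lists did change. Of 8 suprabasal markers 5 rose in SL vs BL, 2 in GL vs SL and 6 in GL vs BL. Of all genes, 2.83%, 4.39% and 8.66% rose in these comparisons. Klk7, a protease of the outer epidermis, had 2.96 ± 0.20 (adjusted p = 2.6e-07) in SL vs BL. Of 5 basal markers, Cdh3, the gene of P-cadherin, fell in SL vs BL (-1.19 ± 0.17, adjusted p = 0.00033) and was higher again in GL vs SL (1.35 ± 0.23, adjusted p = 0.00104), and Krt15 fell in GL vs SL (-0.61 ± 0.14, adjusted p = 0.0114) and GL vs BL (-0.83 ± 0.13, adjusted p = 0.000243). Flg, the granular layer gene filaggrin, was at background on all 6 BL arrays and read 516 and 271 in GL. The GL arrays also held other cells' markers. The summed signal of 3 leukocyte markers was 6970 to 18300 units in GL and at most 1830 elsewhere, and that of 7 bulge and outer root sheath markers was 27300 to 27600 in GL, 14500 to 17600 in SL non-LRC, 4090 to 4220 in SL LRC, 4580 to 7770 in BL non-LRC and 2070 to 2390 in BL LRC. GL is therefore described here as the fraction so labelled, and fewer cells of a type and less RNA per cell cannot be told apart in any of these sorted samples.

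From BL through SL to GL, 4 of the 6 hemidesmosome genes, Lama3 and Lamb3, and 3 of the 6 collagen IV genes fell, while Itgb5 rose. A gene is counted as changed where its adjusted p in limma was under 0.05 over all 18193 genes. Between SL and BL, 14 of the 45 changed, 1 higher and 13 lower, where 5.03% of all genes changed, 2.83% higher and 2.2% lower. The SL and BL arrays did not overlap for 1 gene that was higher and 10 that were lower, against 2.13% and 2% of all genes. Their median difference was -0.42 on the log2 scale, and that of all genes was 0.002. Between GL and SL, 17 changed, 4 higher and 13 lower, against 8.3% of all genes, 4.39% higher and 3.91% lower, with a median of -0.61 against -0.028. There, 6 genes were higher and 15 lower without overlap, against 13% and 12.9% of all genes. With arrays centred on their medians, the share of lower calls over all genes in GL vs SL went from 47.1% to 60.4%. Between GL and BL, 23 changed, 6 higher and 17 lower, against 17.1% of all genes, 8.66% higher and 8.41% lower, with a median of -1.06 against -0.023. Without overlap, 7 were higher and 19 lower, against 13.6% and 13.3% of all genes. These 3 comparisons share arrays, so they are not separate evidence. Over the 5 groups together, 22 of the 45 varied by the F test, against 16.9% of all genes. Label moved fewer of them, with 2 lower in BL LRC (of all genes 1.53% changed, 0.308% higher and 1.23% lower) and 4 lower in SL LRC (of all genes 4.19% changed, 1.49% higher and 2.7% lower). Without overlap, 5 were higher and 7 lower in BL LRC, against 8.76% and 7.67% of all genes. In SL, with 2 arrays against 2, these were 13 and 11, against 23.4% and 24.2%, so a lack of overlap there is close to the background. The shares of all genes given here are also the background for the counts of each shorter list below. Without the mean-variance trend the counts of the 45 were 7 for SL vs BL and 11 for GL vs SL. Within an array set, SL vs BL can be compared for 1 label only. The high set compares both SL LRC arrays with BL LRC 2 and 3, the low set both SL non-LRC arrays with BL non-LRC 1. In that high-set comparison 4 of the 14 SL vs BL changes still passed, and all 14 kept their sign in both sets. These comparisons use fewer arrays and 1 label, so lost calls there do not measure the array set alone.

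**Figure D1:**
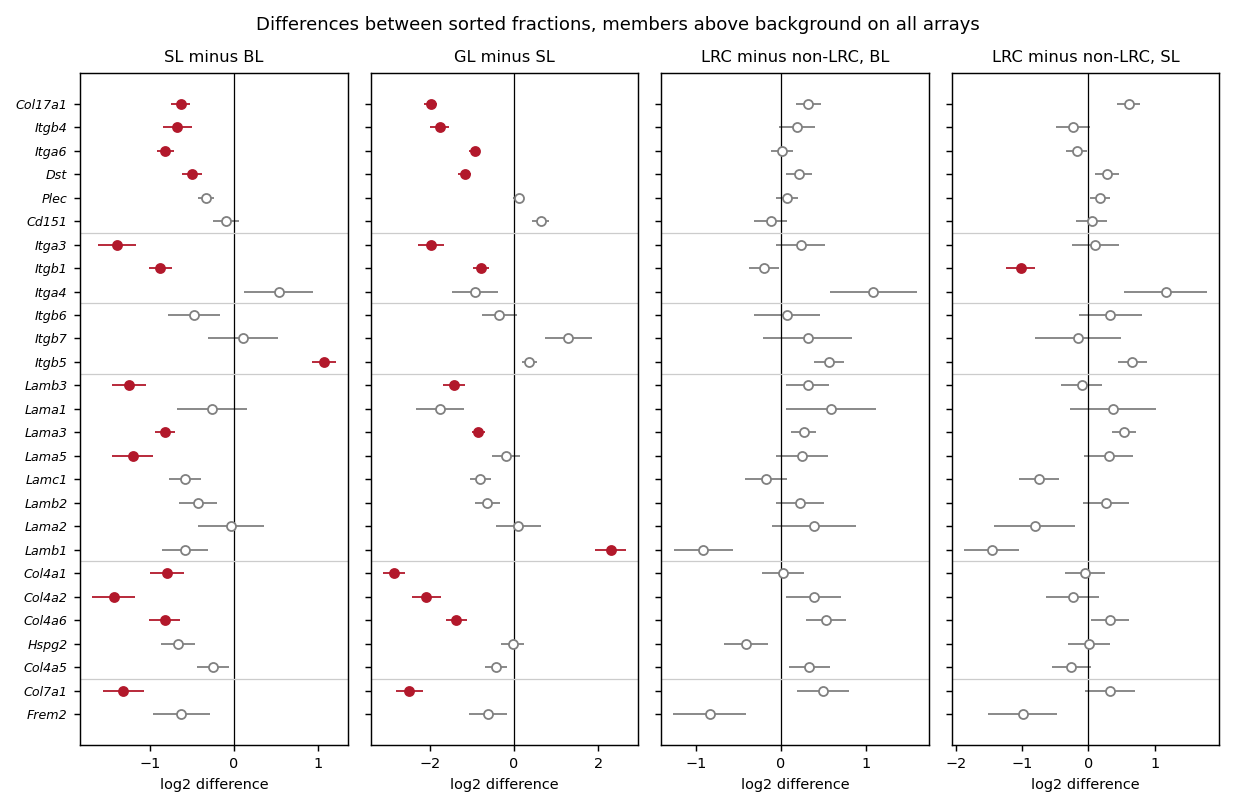
Log2 differences (x axis, points, with bars for the standard error) of the 27 genes above background on all 12 arrays, one panel per comparison, with genes grouped by role on the y axis. Filled red points have an adjusted p under 0.05 in limma. Most red points in the SL minus BL and GL minus SL panels lie left of 0, Itgb5 lies right of it in SL minus BL, and Itgb1 is the only red point in the label panels.

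Hemidesmosome genes were lower outside the basal layer in a graded way, but not all of them. Of the 6 genes, 4 fell in SL vs BL, the same 4 fell in GL vs SL, and Plec and Cd151 passed in neither. With the mean of all its probe sets Plec did pass in SL vs BL (-0.40, adjusted p = 0.0143), as did Cd151 in GL vs SL with values floored at background (adjusted p = 0.0468). The median of the 6 was -0.56 in SL vs BL and -1.06 in GL vs SL, against 0.002 and -0.028 over all genes. Itga6, the alpha chain of the hemidesmosomal integrin, read 9907, 11235 and 10334 in BL LRC against 9959, 12232 and 9255 in BL non-LRC, 5736 and 5419.5 in SL LRC against 6280 and 6347 in SL non-LRC, and 3154 and 3044 in GL. Every BL array lay above every SL array, and every SL array above both GL arrays. It fell by 0.82 ± 0.10 (log2, SE; adjusted p = 0.000132) from BL to SL and differed by -0.94 ± 0.14 (adjusted p = 0.000381) from SL to GL. Its partner Itgb4 read 4849, 3927 and 3679.8 in BL LRC against 4791, 3722 and 2632 in BL non-LRC, 2581 and 1932 in SL LRC against 2891 and 2381 in SL non-LRC, and 818 and 623 in GL. The BL and SL ranges of Itgb4 overlapped, and GL stood apart below both, with differences of -0.67 ± 0.17 (adjusted p = 0.0257) in SL vs BL and -1.76 ± 0.23 (adjusted p = 0.00011) in GL vs SL.

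Col17a1, which binds both the integrin and laminin 332, read 21892, 23514 and 24708 in BL LRC against 17933, 23021 and 15711 in BL non-LRC, 17015 and 16255 in SL LRC against 11754 and 10117 in SL non-LRC, and 3025 and 3859 in GL. It had the smallest p of the 45 genes in GL vs SL, at -1.98 ± 0.15 (adjusted p = 1.42e-06), and was 6.11-fold lower in GL than in BL (adjusted p = 5.11e-09). In SL vs BL it differed by -0.63 ± 0.12 (adjusted p = 0.00285), and its BL and SL ranges overlapped through BL non-LRC 3. Dst, the gene of the plakin dystonin that links the complex to keratin, read 13759.7, 17424 and 18703 in BL LRC against 12098, 17403 and 13609 in BL non-LRC, 11400.5 and 12602 in SL LRC against 10141 and 9579 in SL non-LRC, and 4432 and 5243 in GL. Its differences were -0.49 ± 0.12 (adjusted p = 0.0216) in SL vs BL and -1.17 ± 0.16 (adjusted p = 0.000199) in GL vs SL. The SL vs BL calls of Dst and Itgb4 were the weakest of the hemidesmosome. Median centring took them to adjusted p = 0.0773 and 0.0639, and 6 of 12 single arrays left out ended each, with adjusted p up to 0.109 for Dst without SL LRC 1 and up to 0.146 for Itgb4 without SL LRC 2. Dst also lost its call without SL LRC 2, BL LRC 2 or 3, or either SL non-LRC array. Itgb4 lost it too without BL LRC 1, either of BL non-LRC 1 and 2, or either SL non-LRC array.

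Plec, the gene of the large linker plectin, ran from 6915 to 10778 units over the 12 arrays. Its difference was -0.33 ± 0.10 (adjusted p = 0.0714) in SL vs BL and 0.11 ± 0.14 (adjusted p = 0.732) in GL vs SL, with GL 1 inside the SL range and GL 2 above it. Cd151, a tetraspanin that associates with laminin-binding integrins, read 6079.5 and 5732 in GL, above the highest of the other 10 arrays at 5119. Its difference of 0.63 ± 0.21 (adjusted p = 0.0722) in GL vs SL did not pass. Other Cd151 probe sets above background on all 12 arrays gave 0.64, 0.47, 0.27 and -1.15 in GL vs SL. The last of these gave -1.14 in GL vs BL, so the probe sets did not share a direction. Within the hemidesmosome list the spread over the chosen probe sets was therefore wide, from -2.61 for Col17a1 to 0.53 for Cd151 in GL vs BL.

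**Figure D2:**
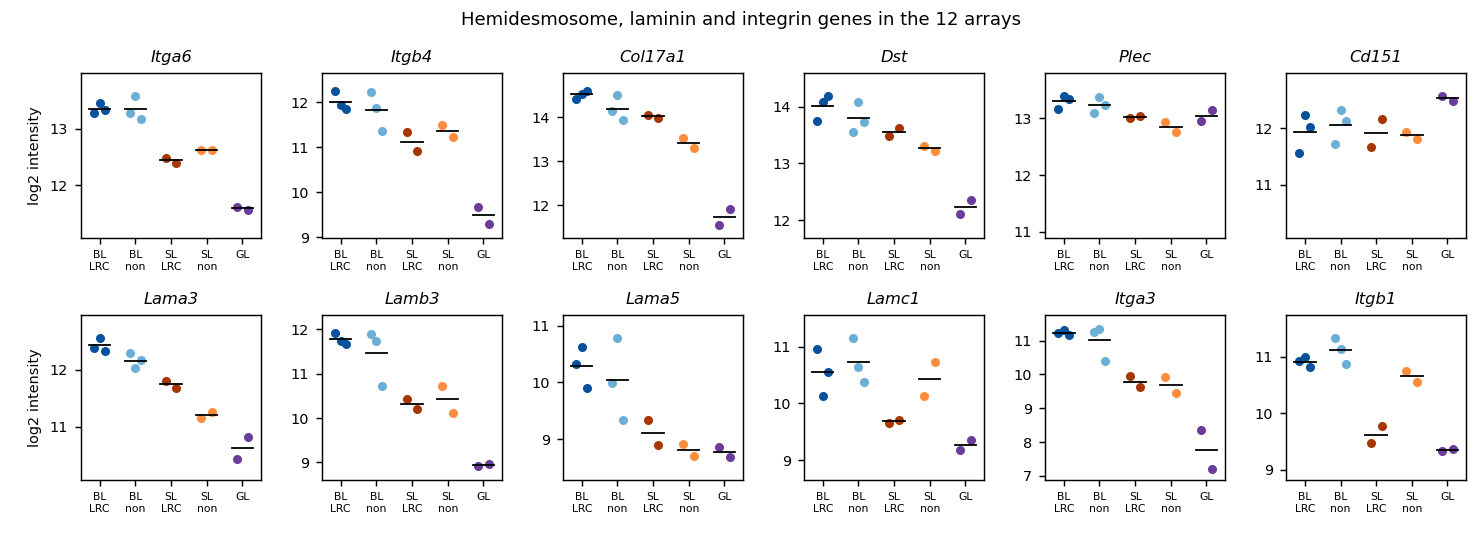
Log2 intensity (y axis) of 12 hemidesmosome, laminin and integrin genes by group (x axis, LRC and non for non-LRC), with 1 point per array and a line at the group mean. Axes differ between genes. Itga6, Itgb4, Col17a1, Dst, Lama3, Lamb3 and Itga3 step down from BL through SL to GL, Plec and Cd151 do not, and Itgb1 is low in SL LRC and GL.

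Lama3 and Lamb3, which encode chains of the main hemidesmosomal ligand laminin 332, fell at each step, Lama5 fell between BL and SL, and Lamb1 was highest in GL. Of the 10 chains measured, 3 fell and 0 rose in SL vs BL (median -0.50), 2 fell and 1 rose in GL vs SL (median -0.72), and 6 fell and 1 rose in GL vs BL (median -1.39). Lama3 read 5375, 6070.2 and 5161 in BL LRC against 5013, 4185 and 4610.2 in BL non-LRC, 3575 and 3291 in SL LRC against 2285 and 2448 in SL non-LRC, and 1377 and 1806 in GL. No array of 1 layer overlapped another layer, and the differences were -0.82 ± 0.12 (adjusted p = 0.000357) in SL vs BL and -0.85 ± 0.16 (adjusted p = 0.00236) in GL vs SL. Its call rests on the probe set used. Without probe sets that can match several transcripts the SL vs BL value was -0.32 (adjusted p = 0.841). With the mean of all its probe sets the values were -0.57 (adjusted p = 0.16) and -0.69 (adjusted p = 0.159), and without GL 1 the GL vs SL value was -0.66 (adjusted p = 0.0822). Lamb3 read 3865, 3387 and 3252 in BL LRC against 3823, 3409 and 1695 in BL non-LRC, 1385 and 1175 in SL LRC against 1687 and 1112 in SL non-LRC, and 483 and 501 in GL. BL non-LRC 3 was lower than the other 5 BL arrays and next to the highest SL array, and the differences were -1.24 ± 0.20 (adjusted p = 0.00102) and -1.43 ± 0.27 (adjusted p = 0.00272).

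Lama5 is the alpha chain of laminins 511 and 521, broadly used in epidermal and follicle basement membranes. It read 1289.5, 1582 and 961 in BL LRC against 1019.9, 1768 and 649 in BL non-LRC, 645 and 477 in SL LRC against 485 and 415 in SL non-LRC, and 465 and 410.1 in GL. BL non-LRC 3 lay just above the highest SL array, and SL and GL overlapped. The change came between BL and SL, at -1.20 ± 0.24 (adjusted p = 0.0058), and GL vs SL was -0.19 ± 0.32 (adjusted p = 0.813). With the mean of all its probe sets, SL vs BL was -0.89 (adjusted p = 0.234). Of the other Lama5 probe sets, 1 above background on all 12 arrays gave -1.13, and 1 above it on 5 arrays gave -0.35. Lamc1, the gamma chain of most other laminins, was not called at either step but fell over both, with -1.38 ± 0.25 (adjusted p = 0.00072) in GL vs BL. Lamb2, the beta chain of laminin 521, was -1.06 ± 0.28 (adjusted p = 0.0152) in GL vs BL, and Lama1, the alpha chain of laminin 111, -2.02 ± 0.53 (adjusted p = 0.0126). Lama1 and Lamb2 each lost that call without GL 1 (adjusted p = 0.0752 and 0.107) and without GL 2 (0.0963 and 0.0962). Lama5 lost its GL vs BL call without GL 2 (adjusted p = 0.0586).

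Lamb1, a beta chain of laminins 111, 211, 411 and 511, went the other way in GL. It read 281, 279 and 319 in BL LRC against 394, 438 and 971 in BL non-LRC, 201 and 129.5 in SL LRC against 336 and 589 in SL non-LRC, and 1134 and 1536 in GL. Both GL arrays exceeded the highest of the other arrays, BL non-LRC 3, and the differences were 2.30 ± 0.36 (adjusted p = 0.000722) in GL vs SL and 1.72 ± 0.34 (adjusted p = 0.00188) in GL vs BL. The second of these had adjusted p = 0.0561 without GL 2. Lama2, the alpha chain of the muscle and nerve laminin 211, ran from 43.2 to 161 units with no call in any comparison.

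Col4a1 and Col4a2, the collagen IV genes of the ubiquitous network, and the epithelial Col4a6 were lower at each step from BL to GL. Of the 9 genes for collagen IV, nidogens and perlecan, Col4a1, Col4a2 and Col4a6 fell in SL vs BL, in GL vs SL and in GL vs BL, and 0 rose in these. The list median was -0.43, -0.43 and -0.70 in these 3 comparisons. Col4a1 encodes the alpha 1 chain of the network found in nearly all basement membranes and read 1746, 1788 and 1321 in BL LRC against 1691, 1626 and 1419.7 in BL non-LRC, 1136 and 714 in SL LRC against 692 and 1256 in SL non-LRC, and 134 and 119.7 in GL. Both GL arrays lay far below the lowest other array, SL non-LRC 1. The differences were -0.80 ± 0.20 (adjusted p = 0.0243) and -2.85 ± 0.26 (adjusted p = 5.73e-06), a 12.5-fold fall over both steps. Another Col4a1 probe set, above background on all 12 arrays, gave -1.77 in SL vs BL, -0.9 in GL vs SL and -2.67 in GL vs BL. The sign was the same throughout, but which step was larger depends on the probe set. Col4a2, its partner chain, read 1249, 1252 and 993 in BL LRC against 879, 1201 and 657 in BL non-LRC, 261 and 461 in SL LRC against 402 and 418 in SL non-LRC, and 132 and 59.6 in GL. The 3 layers did not overlap, with -1.43 ± 0.26 (adjusted p = 0.00259) in SL vs BL and -2.09 ± 0.34 (adjusted p = 0.000965) in GL vs SL. The SL vs BL call of Col4a1 was lost with 6 of the 12 arrays left out in turn, with adjusted p up to 0.173 without SL non-LRC 1 and 0.15 without SL LRC 2, the others being BL LRC 1 and 2 and BL non-LRC 1 and 2.

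The paired genes with the shared 78 bases were set against each other within arrays, as were Col4a6 and Col4a5. Each gene was read from its chosen probe set, and the ratio was not computed with the other Col4a1 probe set. The log2 ratio of Col4a1 over Col4a2 was 0.65 ± 0.30 (SD, n = 6) in BL, 1.28 ± 0.70 (n = 4) in SL and 0.51 ± 0.70 (n = 2) in GL. By exact two-sided permutation tests, adjusted over the 6 tests of both pairs, GL vs BL differed by -0.14 (p = 0.857, adjusted 0.857) and SL vs BL by 0.63 (p = 0.114, adjusted 0.228). Col4a6, with Col4a5 a chain of the epithelial network that contains alpha 5 and alpha 6, read 1615, 1981 and 1531 in BL LRC against 1359, 1412 and 844 in BL non-LRC, 995 and 801 in SL LRC against 645 and 788 in SL non-LRC, and 360.5 and 265 in GL. It fell at both steps, -0.82 ± 0.18 (adjusted p = 0.0134) and -1.37 ± 0.25 (adjusted p = 0.0021), the first with adjusted p = 0.0778 without SL LRC 2 and 0.0813 without SL non-LRC 1. Col4a5 read 1561, 1278 and 1362 in BL LRC against 1365, 986 and 1000.5 in BL non-LRC, 1057 and 866 in SL LRC against 1035 and 1261 in SL non-LRC, and 548 and 1104 in GL. GL 2 lay inside the BL range and GL 1 below all other arrays, and no comparison called it, the nearest being GL vs BL at -0.67 ± 0.24 (adjusted p = 0.0685), which was -1.18 (adjusted p = 0.00853) without GL 2. The log2 ratio of Col4a6 over Col4a5 was 0.19 ± 0.33 (SD, n = 6) in BL, -0.39 ± 0.34 (n = 4) in SL and -1.33 ± 1.03 (n = 2) in GL. SL vs BL differed by -0.58 (exact permutation p = 0.0381, adjusted 0.214), and GL vs BL by -1.52 (exact permutation p = 0.0714, the smallest that 2 against 6 arrays allow, adjusted 0.214). Neither passed the adjustment.

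**Figure D3:**
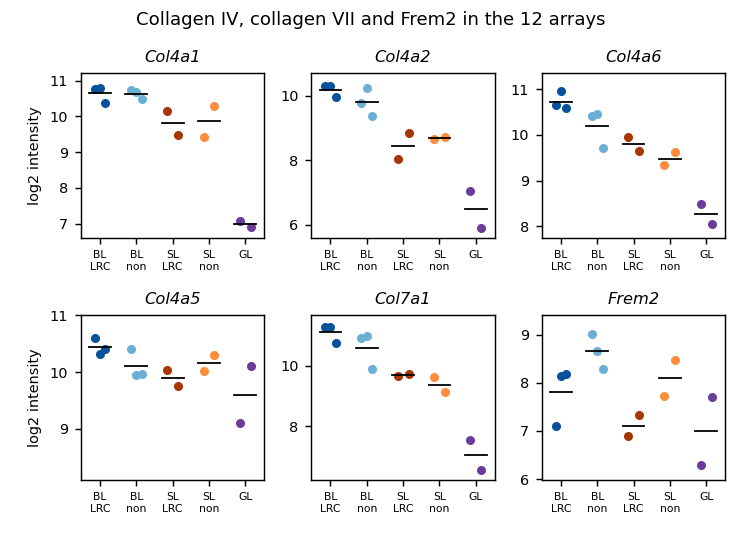
Log2 intensity (y axis) of 4 collagen IV genes, Col7a1 and Frem2 by group (x axis), 1 point per array and a line at the group mean, with an axis of its own for each gene. Col4a1, Col4a2, Col4a6 and Col7a1 are lowest in GL on both arrays, while GL 2 lies among the other groups for Col4a5 and Frem2.

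Hspg2, the gene of the heparan sulfate proteoglycan perlecan, ran from 384 to 1182 units and differed by -0.67 ± 0.20 (adjusted p = 0.0752) in SL vs BL. With probe sets that can match several transcripts left out that value was 0.122 (adjusted p = 0.916), so no direction is drawn for it. Col4a3 and Col4a4, chains of the kidney and lens network, were near background, above it on 3 and 6 of the 12 arrays, and Nid2 on 8, with a highest reading of 53.9 units.

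Col7a1, the gene of the anchoring fibril collagen, fell in step with collagen IV. It read 2474, 2468 and 1729.7 in BL LRC against 1944, 2021 and 949.8 in BL non-LRC, 815 and 849 in SL LRC against 793 and 557 in SL non-LRC, and 189 and 93.4 in GL. The lowest BL array exceeded the highest SL array, and both GL arrays lay below all others. The differences were -1.31 ± 0.24 (adjusted p = 0.00331) and -2.48 ± 0.33 (adjusted p = 0.000135), and GL was 13.9-fold below BL, the widest fall of the 45 genes in that comparison. The Fraser complex did not follow it. Fras1, a large matrix protein of the epidermal side of the sheet, was at background on 6 of 12 arrays and read 14.3, 20.4 and 5.3 in BL LRC against 27.6, 43 and 14.2 in BL non-LRC, 3.2 and 44.3 in SL LRC against 23 and 63 in SL non-LRC, and 154 and 383 in GL. Both GL arrays exceeded the other 10, with 3.51 ± 1.01 (adjusted p = 0.042) in GL vs SL and 3.82 ± 0.96 (adjusted p = 0.00964) in GL vs BL. The first of these did not pass with quantile normalisation (0.0524), without the mean-variance trend (0.112) or with the mean of all probe sets (0.0724). Nor did it pass with the array set as covariate (0.0796) or with only the compared groups fitted (0.0619). Another Fras1 probe set, above background on 5 arrays, gave 0.62 in GL vs SL and 1.27 in GL vs BL. The GL vs SL call ended without either GL array (adjusted p = 0.124 and 0.295), without SL LRC 1 (0.119) and without either SL non-LRC array (0.113 and 0.0521), and the GL vs BL call without GL 2 (0.153). Its partner Frem2 ran from 78.3 to 516 units, and its closest difference to the threshold was -1.24 ± 0.43 (adjusted p = 0.0574) in GL vs BL. Frem1 was above background on 6 arrays, with a highest reading of 60.9 units.

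Itga3, Itga2 and Itgb1, genes of the beta 1 integrins, were lower in GL than in BL. Of the 10 genes of this list, 2 fell in SL vs BL and 3 in both GL comparisons, and 0 rose in these. Itga3, the alpha chain of the laminin 332 receptor alpha 3 beta 1, read 2386, 2539 and 2306 in BL LRC against 2446, 2619.9 and 1349.8 in BL non-LRC, 983 and 789.5 in SL LRC against 969 and 692 in SL non-LRC, and 324 and 146 in GL. The layers did not overlap, and the differences were -1.39 ± 0.23 (adjusted p = 0.00125) in SL vs BL and -1.96 ± 0.31 (adjusted p = 0.000616) in GL vs SL, a 10.2-fold fall over both. Itga2, the alpha chain of a collagen receptor, read 654, 948 and 767 in BL LRC against 424, 861 and 383 in BL non-LRC, 840.5 and 193 in SL LRC against 122 and 213 in SL non-LRC, and 27.5 and 126 in GL. SL LRC 1 stood with BL while the other 3 SL arrays lay below it, and SL vs BL was -1.32 ± 0.44 (adjusted p = 0.107). GL vs SL was -2.12 ± 0.59 (adjusted p = 0.034), with the adjusted p at 0.508 without GL 1, 0.122 without SL LRC 1 and 0.0984 without SL non-LRC 2. GL vs BL was -3.44 ± 0.55 (adjusted p = 0.000276) and kept its call with each array left out.

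Itgb1, the shared beta chain, read 1935, 2039 and 1799 in BL LRC against 2576, 2242 and 1876 in BL non-LRC, 711 and 877 in SL LRC against 1713 and 1506 in SL non-LRC, and 643 and 664 in GL. All SL arrays lay below all BL arrays, with SL LRC nearer to GL and SL non-LRC nearer to BL. It fell by 0.87 (log2; adjusted p = 0.000982) from BL to SL, by 0.79 (adjusted p = 0.0142) from SL to GL, and was 2.03-fold lower in SL LRC than in SL non-LRC (-1.02 ± 0.22, adjusted p = 0.0113). With the mean of all its probe sets these were -0.83 (adjusted p = 0.252), -0.34 (0.778) and -0.83 (0.51). That mean takes in probe sets above background on 8, 7 and 0 arrays. The other Itgb1 probe sets above background on all 12 arrays gave -0.94 and -1.19 in SL vs BL. They gave -0.34 and -0.49 in GL vs SL, and -0.96 and -1.02 for the SL label difference. GL vs SL had adjusted p = 0.122 without GL 1 and 0.0765 without GL 2. The SL label difference had 0.128 without SL LRC 1, 0.0911 and 0.0663 without either SL non-LRC array, and 0.148 with the array set as a covariate. In BL the label difference of Itgb1 was -0.20 ± 0.18 (adjusted p = 0.74), and the test of SL against BL label difference gave -0.82 ± 0.28 (adjusted p = 0.594).

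The other alpha partners were dim. Itga4, which pairs with beta 1 or beta 7, ran from 36.2 to 156 units and was higher in BL LRC than in BL non-LRC on every array, without passing (1.09 ± 0.51, adjusted p = 0.446). Itga9, a receptor for tenascin and other ligands, was above background on 10 arrays with at most 89.9 units, and Itga5, the fibronectin receptor chain, on 9 with 11.5 to 462. Arrays of 1 group differed widely for Itga5, with 12.8, 206 and 188 in BL non-LRC and 462 and 48.4 in GL. Itga10, Itga7, Itga1 and Itga8 were above background on 6, 5, 3 and 1 arrays. None of these 7 passed in any comparison.

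Other beta integrins rose where they changed with layer. Of 6 genes, 1 rose in SL vs BL, 2 in GL vs SL and 4 in GL vs BL, and 0 fell in these, with list medians of 0.41, 1.17 and 1.97. Itgb5, which pairs with alpha v to bind vitronectin, read 972, 901 and 965 in BL LRC against 549, 700.4 and 679.8 in BL non-LRC, 1869 and 2243 in SL LRC against 1246 and 1343 in SL non-LRC, and 2045 and 2147 in GL. Every SL and GL array exceeded every BL array, with 1.07 ± 0.14 (adjusted p = 0.000176) in SL vs BL and 1.43 ± 0.18 (adjusted p = 1.96e-05) in GL vs BL. Both calls held with each array left out and within the high array set, where SL vs BL is SL LRC against BL LRC. Within the low set, SL non-LRC against BL non-LRC gave 1.24. Itgb5 was higher in LRC in both layers without passing, with 0.56 ± 0.18 (adjusted p = 0.161) in BL and 0.66 ± 0.22 (adjusted p = 0.102) in SL. With probe sets that can match several transcripts left out, its BL label difference was -0.009 (adjusted p = 0.996). Its partner Itgav ran from 4108 to 6429 units, and GL, at 4108 and 4791, lay below every BL array.

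Itgb2, the beta chain of the leukocyte integrins, read 88.8, 21 and 7.8 in BL LRC against 73, 37.4 and 21.2 in BL non-LRC, 6.8 and 33.1 in SL LRC against 46.5 and 110.4 in SL non-LRC, and 1367 and 349.7 in GL. Both GL arrays exceeded every other array, and GL vs SL was 4.40 ± 0.96 (adjusted p = 0.00794) and GL vs BL 4.49 ± 0.90 (adjusted p = 0.00193). GL 1 was well above GL 2, and without GL 1 the adjusted p values were 0.191 and 0.0929. Itgb7, the partner of alpha E in intraepithelial T cells, read 510.3 and 218 in GL and 62.3 to 266 elsewhere, so that GL 2 overlapped BL, and did not pass in GL vs BL (1.40 ± 0.53, adjusted p = 0.0853). Of the alpha chains that can pair with Itgb2 or Itgb7, 3 were highest on GL 1 and then GL 2, and Itgam and Itga4 were not. Itgae read 2713 and 467 in GL and at most 286 elsewhere, with 3.31 ± 0.59 (adjusted p = 0.000722) in GL vs BL. Itgal read 518 and 276 in GL and at most 67.5 elsewhere (3.10 ± 0.57, adjusted p = 0.000879), and Itgax 265 and 91.2 in GL, at least 5.4-fold above BL (adjusted p = 0.00681). Itgam, another partner of Itgb2, read 76.7 and 38.9 in GL and up to 44.6 elsewhere, so GL 2 overlapped SL. Itga4, which can pair with beta 7, read 55.2 and 50.1 in GL, below 144 and 156 in SL LRC.

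Markers of leukocytes moved with these integrins. Of 3 leukocyte markers 3 rose in GL vs SL, of 8 Langerhans and myeloid markers 7, and of 6 T cell markers 4. Of all genes, 4.39% rose there. Ptprc, which encodes CD45, read 2482 and 1108 in GL and at most 172 elsewhere, and Cd3e of the T cell receptor complex 6784 and 1894 in GL and at most 486 elsewhere. GL 1 exceeded GL 2 for both, as it did for Itgb2, Itgb7, Itgae, Itgal and Itgax. The summed myeloid signal was 28400 to 62100 in GL and at most 8540 elsewhere, and the T cell sum 9100 to 27800 in GL and at most 9390 elsewhere. Their part in the GL values of these integrins was not tested. Itgb3, a platelet and endothelial chain, was above background on both GL arrays and on 0 of 6 BL arrays, at least 1.4-fold higher in GL (adjusted p = 0.0453). This call was lost under 9 of 11 processing alternatives and with 9 of 12 arrays left out, the highest adjusted p among the latter being 0.313 without GL 1. Itgb6, an epithelial chain that activates latent TGF beta, ran from 82.8 to 296 units with no call.

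**Figure D4:**
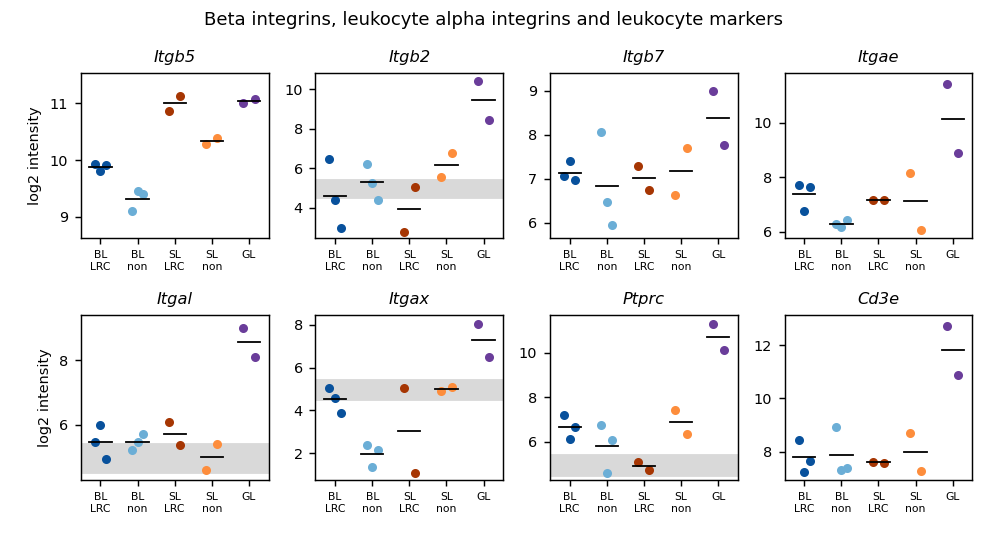
Log2 intensity (y axis) of 3 beta integrins, 3 alpha integrins and the leukocyte markers Ptprc and Cd3e by group (x axis), 1 point per array, with a line at the group mean and a grey band for the range of array backgrounds. Itgb5 is high in SL and GL alike, while the other 7 genes have their highest array in GL, with GL 1 above GL 2 in each.

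Between LRC and non-LRC, no hemidesmosome or collagen IV gene passed in either layer. The genes that passed were Lama4 and Nid1 in both layers and Itgb8 and Itgb1 in SL, all lower in LRC. Nearest among the hemidesmosome genes was Col17a1, higher in SL LRC by 0.61 ± 0.18 (limma adjusted p = 0.066). It passed with quantile normalisation (0.0447), with only the compared groups fitted (0.0289), and without BL non-LRC 2 or 3 (0.0318 and 0.0441). Under the other alternatives run and without other arrays Col17a1 did not pass, with adjusted p up to 0.376. The median label difference of the 45 genes was 0.23 in BL and 0.047 in SL, against 0.046 and -0.001 over all genes. Median centring of the arrays moved the share of lower calls over all genes from 79.9% to 90% in BL. Lama4, the alpha chain of laminin 411, known from vessels, nerve and fat, read 18.1, 15.6 and 9.7 in BL LRC against 449, 264 and 760.5 in BL non-LRC, 12 and 25.7 in SL LRC against 372 and 659.6 in SL non-LRC, and 15.1 and 48.6 in GL. All 5 LRC arrays were at background and all 5 non-LRC arrays far above it, so LRC was at least 15-fold lower in BL (adjusted p = 0.000249) and at least 13.3-fold lower in SL (adjusted p = 0.00161). Both calls held under all 11 processing alternatives and with each array left out, while the BL difference was -4.63 (adjusted p = 0.251) within the low array set, which holds 1 BL array of each kind. Nid1, which links laminin to collagen IV, read 16.5, 7.5 and 18.9 in BL LRC against 222, 194 and 387 in BL non-LRC, 26.9 and 10.5 in SL LRC against 126 and 349 in SL non-LRC, and 81.1 and 31.9 in GL. Again no LRC array was above background and each non-LRC array was, giving at least 8.57-fold in BL (adjusted p = 0.00211) and at least 5.63-fold in SL (adjusted p = 0.0166). With the mean of its probe sets, which takes in 1 above background on 0 arrays, the adjusted p was 0.197 in BL and 0.249 in SL. The SL call of Nid1 was also lost without SL LRC 2 (0.146) and without SL non-LRC 2 (0.225).

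Itgb8, the partner of alpha v in another TGF beta activating integrin, read 59.6, 32.4 and 48.2 in BL LRC against 206, 119 and 494 in BL non-LRC, 22.8 and 126 in SL LRC against 440.4 and 618 in SL non-LRC, and 619 and 1112 in GL. The LRC and non-LRC arrays did not overlap in either layer, and GL was as high as SL non-LRC or higher. In SL the label difference was -3.29 ± 0.73 (adjusted p = 0.0155), with 1 of 2 SL LRC arrays above background. It lost its call without SL LRC 1 (adjusted p = 0.211) and without either SL non-LRC array (0.0597 and 0.154). In BL it was -2.34 ± 0.60 (adjusted p = 0.0648), short of the threshold, but it passed with the replicate number as a block, at adjusted p = 0.0391 for a block among the BL arrays and 0.047 for one among all arrays. It also passed with median centring (0.0453), quantile normalisation (0.0428) and values floored at background (0.0202), and without BL non-LRC 2, SL LRC 1 or SL LRC 2 (0.0359, 0.0221 and 0.0268). Under the other 7 alternatives and without the other 9 arrays it did not pass, with adjusted p up to 0.321 without BL non-LRC 3. GL vs SL was 2.31 ± 0.63 (adjusted p = 0.032) and GL vs BL 3.02 ± 0.60 (adjusted p = 0.00166). The GL vs SL call was lost without GL 1 (0.105) or GL 2 (0.263), without SL LRC 1 (0.0918), or without either SL non-LRC array (0.0877 and 0.057), and the GL vs BL call without GL 2 (0.0568). Lamb1 was lower in LRC on every array of both layers without passing, at -0.92 ± 0.34 (adjusted p = 0.285) in BL and -1.46 ± 0.42 (adjusted p = 0.0621) in SL. With the array set as a covariate, 1 of the 4 SL label calls remained, that of Lama4. Among these calls, those in SL cannot be told apart from the array set.

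Infundibulum and sebaceous markers moved with the same label contrast. All 8 of them fell in BL LRC and 7 of 8 in SL LRC, where 1.23% and 2.7% of all genes fell. Their summed signal was 11000 to 13600 units in BL LRC and 29700 to 60100 in BL non-LRC. It was 23600 to 25300 in SL LRC, 60500 to 70700 in SL non-LRC and 42500 to 42700 in GL. Mgst1, a glutathione transferase of the infundibulum and sebaceous gland, read 169, 105 and 281 in BL LRC against 3904, 2913 and 10487 in BL non-LRC, 187 and 577 in SL LRC against 4918 and 8968 in SL non-LRC, and 2613 and 5738 in GL. Pparg, the lipid gene regulator of sebocytes, was at background in BL LRC and read 331, 239.8 and 2439.7 in BL non-LRC, 13.6 and 57.8 in SL LRC, 511 and 1225 in SL non-LRC and 10.5 and 32.2 in GL. BL non-LRC 3 was the highest of the BL arrays for Lama4, Nid1, Itgb8, Lamb1, Mgst1 and Pparg. In GL, Lama4 and Pparg were near background while Itgb8, Lamb1, Fras1 and the follicle regulator Sox9, at 11387 and 10946, were at their highest. Endothelial cells are another textbook source of Lama4 and Nid1. Their 8 markers summed to 135 to 275 units in BL LRC and 145 to 190 in BL non-LRC. In SL the sums were 138 to 156 in LRC and 102 to 148 in non-LRC, and 0 of the 8 passed by label in either layer. By array, 0 to 4 of the 8 were above background in BL LRC and 1 to 2 in BL non-LRC. Kdr, Tek and Tie1 were at background on all 6 BL arrays. Vwf read 82, 8.6 and 53.6 in BL LRC and 44.4, 45.2 and 60.4 in BL non-LRC. Fibroblast markers, from a further textbook source, moved with label in BL. Of 8, 7 were lower in BL LRC and 1 passed, with a list median of -1.06 and sums of 166 to 324 in BL LRC against 430 to 808 in BL non-LRC. The one that passed, Mgp, the gene of matrix Gla protein, read 79.7, 52.7 and 71.1 in BL LRC against 335, 348 and 277 in BL non-LRC, 188 and 126 in SL LRC against 321 and 322 in SL non-LRC, and 538 and 469 in GL, with -2.25 ± 0.33 (adjusted p = 0.00122) in BL. In SL, 0 of these 8 passed, and the sums were 245 to 502 in SL LRC against 487 to 869 in SL non-LRC. By array, 2 to 3 of the 8 were above background in BL LRC and 3 to 6 in BL non-LRC. In SL these counts were 2 to 5 in LRC and 3 in non-LRC. The fibroblast genes Lum and Pdgfra were at background on all 6 BL arrays. Col3a1, Dcn and Dpt were at background on all BL LRC arrays but not on all BL non-LRC arrays. Of the 7 bulge and outer root sheath markers, 2 were lower in BL LRC, and 3 were lower and 1 higher in SL LRC, with the sums given above. In SL, 3 of 8 Langerhans and myeloid markers and 2 of 7 melanocyte markers were lower in LRC, and 0 of either list passed in BL. The myeloid sums were 1220 to 1780 in SL LRC against 3570 to 8540 in SL non-LRC. Melanocyte sums were 667 to 673 against 1280 to 1300. Of 6 pericyte and smooth muscle markers and 3 Schwann cell markers, 0 passed by label in either layer. The part of all these cell type markers in the label and GL differences was not tested.

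**Figure D5:**
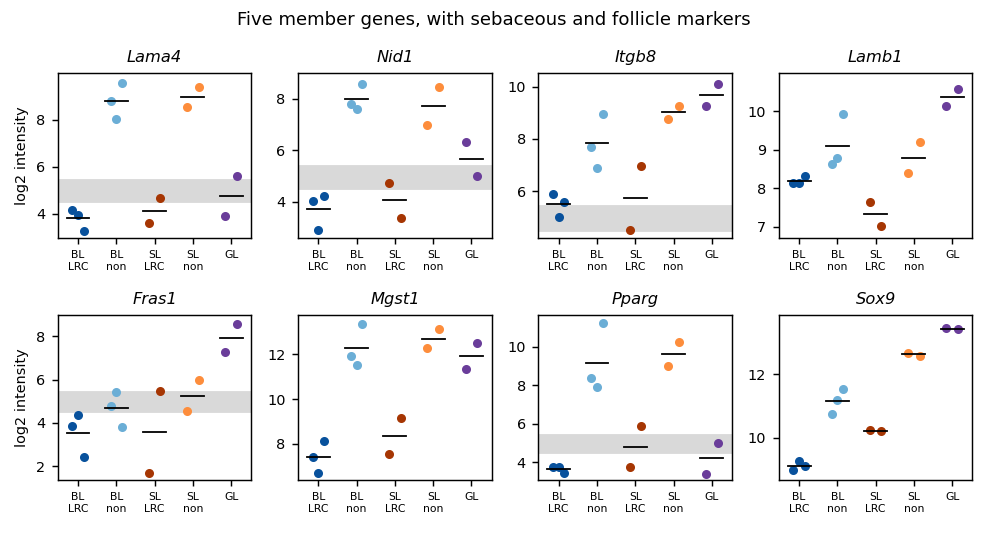
Log2 intensity (y axis) of Lama4, Nid1, Itgb8, Lamb1 and Fras1 beside the sebaceous markers Mgst1 and Pparg and the follicle gene Sox9, by group (x axis), 1 point per array, with a line at the group mean and a grey band for the range of array backgrounds. Lama4, Nid1, Mgst1 and Pparg separate LRC from non-LRC arrays in both layers, and Itgb8, Lamb1, Fras1 and Sox9 are highest in GL.

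A difference between the 2 layers in the effect of label was not detected. The limma interaction called 0 of the 45 genes and 0 of all 18193 (0%), with 2 of the 45 at an unadjusted p under 0.05. These were Itgb1, given above, and Lamc3, a laminin gamma chain above background on 3 of 12 arrays (4.60 ± 1.26, adjusted p = 0.483). The label effect of Lama4 was -5.00 in BL and -4.82 in SL, and their difference was 0.18 ± 0.99 (adjusted p = 0.982). No interval here shows that the effects are equal, and the standard errors of the interaction ran up to 1.82 for single genes.

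Other genes of the adhesion machinery were taken from 4 lists. Of all genes, 2.83% rose and 2.2% fell in SL vs BL, with a median of 0.002. In GL vs SL 4.39% rose and 3.91% fell (median -0.028), and in GL vs BL 8.66% and 8.41% (median -0.023). These shares are the background for the counts of each list. Among 6 integrin alpha chains outside the symbol rule, 0 changed in SL vs BL, 2 rose in GL vs SL, and 3 rose and 1 fell in GL vs BL. Among 22 adaptors that couple integrins to actin, 2 rose and 3 fell in SL vs BL (median -0.050), and 5 rose and 6 fell in GL vs SL (median -0.065). Tns1 and Tns4, tensins that bind beta integrin tails, fell in GL vs SL, with -1.61 ± 0.23 (adjusted p = 0.000246) and -1.86 ± 0.17 (adjusted p = 4.51e-06). Actn1, the actin cross-linker alpha actinin 1, rose by 2.50 ± 0.21 (adjusted p = 1.95e-06), from 1156 and 1081 in SL LRC and 4105 and 3727 in SL non-LRC to 11067 and 12592 in GL. By label, Tns3 and Parva fell in BL LRC (-1.68 ± 0.30, adjusted p = 0.00606, and -1.13 ± 0.23, adjusted p = 0.0147), and Actn1, Tns3 and Tns1 in SL LRC, where Tns3 was -1.91 ± 0.36 (adjusted p = 0.006).

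Among 23 other basement membrane components and receptors, 1 rose and 7 fell in SL vs BL (median -0.38), and 6 rose and 3 fell in GL vs SL (median 0.33). Smoc2, a calcium-binding matrix protein, Agrn, the proteoglycan agrin, and Npnt, a ligand of integrin alpha 8 beta 1, fell in SL vs BL with -1.62 ± 0.18 (adjusted p = 4.92e-05), -1.03 ± 0.14 (adjusted p = 0.000225) and -0.97 ± 0.15 (adjusted p = 0.000763). Npnt and the matrix protein gene Tgfbi fell in GL vs SL (-1.51 ± 0.20, adjusted p = 0.000155, and -1.11 ± 0.19, adjusted p = 0.00158). Ntn4, a netrin that binds laminin gamma 1, rose in GL vs SL by 1.75 ± 0.24 (adjusted p = 0.000212). Dag1, the laminin receptor dystroglycan, fell in LRC of both layers, with -0.96 ± 0.19 (adjusted p = 0.014) in BL and -0.88 ± 0.23 (adjusted p = 0.0443) in SL.

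Among 20 matrix proteases and inhibitors, 1 rose and 2 fell in SL vs BL (median 0.037), and 3 rose and 2 fell in GL vs SL (median 0.015). Adamts1, a matrix protease, rose in SL vs BL (1.23 ± 0.17, adjusted p = 0.000238), while Mmp14, a membrane protease, and Htra1, a secreted protease, fell (-0.63 ± 0.15, adjusted p = 0.0191, and -0.76 ± 0.17, adjusted p = 0.0144). Timp2 and Timp3, inhibitors of metalloproteases, fell in LRC of both layers, and Timp2 rose in GL vs SL (2.87 ± 0.35, adjusted p = 8.02e-05). Mmp9, a gelatinase of leukocytes and keratinocytes, rose in GL vs SL by 5.07 ± 0.88 (adjusted p = 0.00153), with 2261 and 377 in GL and at most 79.8 elsewhere, again higher on GL 1.

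Probe sets other than the chosen one gave a check of direction for 28 of the 45 genes that have several. Of the genes called in SL vs BL, 9 had other probe sets above background on all arrays, and 14 of those 14 probe sets had the same sign. The counts were 12 of 12 for 8 genes in GL vs SL and 17 of 17 for 11 genes in GL vs BL. For the BL label calls, Lama4 and Nid1, 0 other probe sets were above background on all arrays. This filter cannot check them, because both genes were at background on every LRC array. The other Lama4 probe set, above background on 4 arrays, gave label differences of -4.47 in BL and -4.96 in SL. For Nid1, a probe set above background on 7 arrays gave -2.71 and -4.84. Another, above background on 0 arrays, gave -0.3 and 1.63.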

How the data were processed

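Gene expression in 12 sorted samples of mouse skin was measured on Affymetrix Mouse Genome 430 2.0 arrays. Per the labels' protocols, RNA was isolated with RNeasy micro columns, amplified with NuGEN Ovation Pico WTA and labelled with Encore Biotin. The deposited values are probe-set intensity on a linear scale with a lowest value of 1, and on each array their 2% trimmed mean is 500, which was read from the values. For the summarising software, the sources used here give no name. The design had assumed log2 values, so log2 of the intensity was taken with nothing added.

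Of 45101 probe sets, 34945 name 1 gene, 932 several genes and 9160 none, with 64 controls left out, and the probe set of highest mean log2 was kept for each of 18193 genes. In limma 3.58.1 (R 4.3.3) 1 model of 5 group means was fitted to all 12 arrays, with eBayes and a mean-variance trend. Contrasts compared LRC with non-LRC in BL and in SL, the layers (with LRC and non-LRC weighted equally), and the label effects of BL and SL, with an F test over the groups. P-values were adjusted by Benjamini-Hochberg over all genes at 0.05, and errors printed after ± are standard errors unless marked SD. A fold against a group never above background is given as a bound, using the background in its place. The script was tested on simulated data. The number of arrays limits the precision. Members named are all those past the threshold, and others by role and smallest p. The members and lists were chosen with earlier results of these data known. Replicate numbers, taken from the titles, paired the BL samples by the correlation of their deviations from the group means, which was 0.178 to 0.317 in the 3 same-number pairs of BL LRC and BL non-LRC and -0.203 to 0.009 in the 6 others. Over the other 18 same-number pairs it was -0.119 to 0.101, so the numbers did not pair the remaining groups. The labels do not say what a number marks. Alternatives changed the scaling, floor, pseudocount (50), dim filter, trend, probe set choice, block, array set, arrays fitted and single arrays.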

Additional observations from a re-analysis of the deposited data

How the results depend on the processing

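Of 60 gene results called, 30 were called under each processing alternative that was run and with each array left out. For 6 of these 30, those of Col17a1, Itgb4 and Lamb3, 1 alternative gave no value. It leaves out the probe sets that can match several transcripts, and these genes have no others. For BL label effects 2 genes were called, against 1 with the mean of all probe sets and 0 within the low array set, and 2 to 3 with single arrays left out. For SL label effects 4 were called, against 1 without the mean-variance trend, 2 with the mean of all probe sets and 1 with the array set as covariate, and 1 to 6 with single arrays left out (2 without SL LRC 1, 2 without SL non-LRC 1 and 1 without SL non-LRC 2). For SL vs BL 14 were called, against 7 without the trend, 4 within the high and 2 within the low array set, and 10 to 15 with single arrays left out. For GL vs SL 17 were called, against 11 without the trend, and 11 to 18 with single arrays left out, the 11 being without GL 1. For GL vs BL 23 became 18 to 24, for the F test 22 became 20 to 23, and the interaction stayed at 0 in each. With the replicate number as a block, the counts were 3, 5, 14, 18, 23, 0 and 24 in the order BL label, SL label, SL vs BL, GL vs SL, GL vs BL, interaction and F. With the block among the BL arrays alone 3 label calls were made in BL, Itgb8 (adjusted p = 0.0391) beside Lama4 and Nid1. That block and the comparisons within array sets were chosen after seeing the data. Within the high set, SL vs BL is SL LRC against BL LRC, and within the low set SL non-LRC against BL non-LRC. Their counts are therefore not the same comparison on fewer arrays. In 7 results, none of them called, the sign turned. Leaving out probe sets that can match several transcripts gave -0.009 for Itgb5 (BL label), -0.237 for Lama3 (SL label) and 0.122 for Hspg2 (SL vs BL). Lamb1 in SL vs BL was 0.051 with the mean of all probe sets and 0.174 within the low array set, Itga5 in SL vs BL was 0.958 within the low set, and Lama4 in GL vs SL was 0.625 within the high set. Within the high set GL vs SL is GL against SL LRC alone, where Lama4 read 12 and 25.7. That value leaves out the SL non-LRC arrays, where Lama4 read 372 and 659.6. The cause of the other sign changes was not tested. Centring arrays on their medians moved the median difference of all genes from 0.046 to -0.054 in the BL label comparison and from -0.028 to -0.157 in GL vs SL. Genes near background, 18 of the 45 on at least 1 array, have only bounds or wide errors.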
